A study of Drosophila melanogaster with 10 samples.

Results

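The alpha, beta and gamma tubulin genes of Drosophila melanogaster were followed through testes that differ in the germ cell stages they hold. Of 10 tubulin genes named for this description, 8 matched a FlyBase identifier among the 17412 in the count tables. The genes betaTub56D and betaTub60D matched none by symbol and are not analysed here. RNA was counted in whole testes of 5 genotypes, with 2 libraries of each, and 100 testis pairs, taken from males less than 2 days of age, went into every library. B9d1 KD (w;B9d1RNAi;bam-Gal4, UAS-dicer2) is a knockdown labelled as enriched for young spermatocytes. The Tektin-C and Klp59D knockdowns (same bam-Gal4, UAS-dicer2 background, with an RNAi construct against the named gene) and the sa mutant (sa-/-) are labelled as enriched for mature spermatocytes, and wild type (WT) as holding all male germ cell stages. Knockdown flies spent 3 days at 22°C and the next 8 days at 30°C. The sa mutant spent 12 days and WT 10 days at 22°C throughout. The sa gene encodes a testis form of a general transcription factor subunit, which spermatocytes use to turn on meiotic and spermatid genes. Temperature, driver, extra Dicer-2 and germ cell stage therefore differ together between a knockdown and WT and cannot be told apart. The driver bam-Gal4 acts in late spermatogonia, so the somatic cells of the testis were not its target.

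Microtubules are built from dimers of 1 alpha and 1 beta tubulin, and gamma tubulin sits in ring complexes that start new microtubules at centrosomes and other sites. Flies carry several genes of each class, some used in nearly every cell and some tied to 1 tissue. The testis uses microtubules for the meiotic spindles, for reshaping the spermatid and for the axoneme, the core of the very long sperm tail. The beta tubulin betaTub85D is the classic testis form and serves all of these structures in the male germ line after the spermatogonial divisions.

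The libraries held 17621525 to 30798942 counts. The 2 libraries of a genotype differed by little more than sampling noise. Over genes with 50 to 5000 counts, the squared deviation between them had a median of 1.04 to 1.11 in units of its binomial expectation, and of 41.1 to 431 between genotypes. They were summed and treated as 1 sample, so no comparison below has a replicate check and none carries a p-value. Levels are counts per 1000000 scaled by TMM factors (scaled CPM), and intervals in square brackets are exact 95% intervals that cover counting error only. A gene was called apart when 2 samples differed at least 2-fold. The Tektin-C transcript stood at 201 and 204 scaled CPM under its own label, against 12.7 and 11.6 under the Klp59D KD label. The Klp59D transcript stood at 333 and 336 scaled CPM under its own label, against 29.3 and 30.0 under the Tektin-C KD label. Both transcripts went against their labels, so these samples are named by label alone, and each direction given for them follows the label. B9d1 was at 8.91 and 9.91 scaled CPM in B9d1 KD, against 109 and 108 in WT, and sa was at 3.73 and 3.24 in the sa mutant, against 36.7 and 41.4 in WT.

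The testis beta tubulin betaTub85D (FBgn0003889; dm6, chromosome 3R, 9408383 to 9410282, minus strand, 1 annotated transcript) differed more among the genotypes than any other matched member. It was at 1144 and 1156 scaled CPM in B9d1 KD, 4151 and 4156 in libraries labelled Tektin-C KD, 1783 and 1791 under the Klp59D KD label, 156 and 154 in the sa mutant, and 3729 and 3722 in WT. The sa mutant was the lowest and the library labelled Tektin-C KD the highest, and libraries of different genotypes did not overlap. Its level was 24.0-fold [23.5 to 24.6] lower in the sa mutant than in WT, 3.24-fold [3.21 to 3.27] lower in B9d1 KD and 2.08-fold [2.07 to 2.10] lower in the library labelled Klp59D KD. In the library labelled Tektin-C KD it was 1.11-fold [1.11 to 1.12] higher than in WT. Scaling by library size alone, in place of TMM, gave a log2 fold of -0.51 in the library labelled Klp59D KD in place of -1.06, under 2-fold. In these bulk samples, fewer cells that express a gene and less of its RNA per cell cannot be told apart. As a plain share of all counts, betaTub85D made up 0.0201% in the sa mutant, 0.130% in B9d1 KD, 0.198% and 0.338% under the Klp59D KD and Tektin-C KD labels, and 0.282% in WT. The log2 range of betaTub85D over the 5 samples was 4.74, against a median of 1.89 over all 13831 genes that passed the filter on low counts, and 94.6% of those genes had a smaller range.

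**Figure D1:**
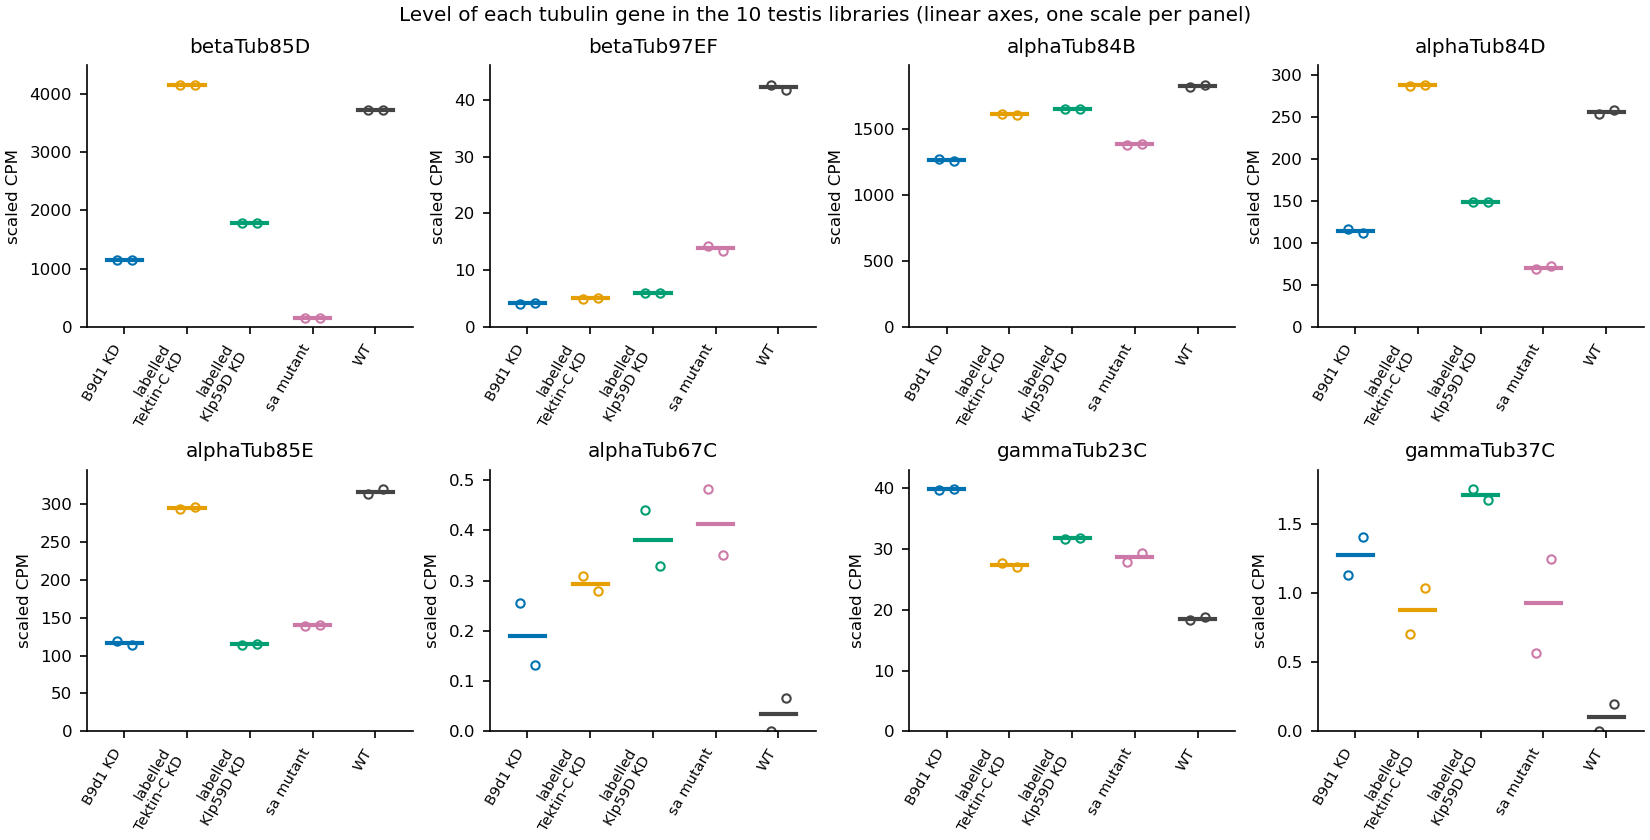
Scaled CPM of the 8 matched tubulin genes, with each library as an open circle and the summed sample as a bar, on linear axes that start at 0. betaTub85D is at 154 to 156 in the sa mutant libraries and at 1144 or more in all the others, while alphaTub84B stays between 1259 and 1837 in all 10 libraries.

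The 3 genes whose profile lay closest to that of betaTub85D were CG16853, CG2127 and CG17564. Likeness was the Euclidean distance between log2 CPM profiles over the 5 samples, each centred on its own mean, among 6821 other named genes with an average log2 CPM of at least 4. The distances were 0.20, 0.22 and 0.25. CG2127 was at 590 scaled CPM in B9d1 KD, 1904 in the library labelled Tektin-C KD, 786 in that labelled Klp59D KD, 71.8 in the sa mutant and 1948 in WT. Among tubulin genes the nearest was CG7794, at rank 324, followed by betaTub65B at rank 354 and alphaTub84D at rank 1118.

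The other matched beta tubulin, betaTub97EF (FBgn0003890; 3R, 27967008 to 27988384, minus strand), was a minor transcript with a different order. It is a general beta tubulin that is known in flies to increase in the cold. It was at 3.98 and 4.30 scaled CPM in B9d1 KD, 4.96 and 5.18 in libraries labelled Tektin-C KD, 6.01 and 6.05 under the Klp59D KD label, 14.3 and 13.4 in the sa mutant, and 42.6 and 41.7 in WT. WT was highest, the sa mutant, kept at 22°C like WT, came next, and the 3 knockdowns, which ended at 30°C, were lowest. Temperature differs together with driver, extra Dicer-2 and germ cell stage, and its part in these values was not tested. Neighbouring knockdowns differed by 1.19-fold [1.01 to 1.41] and 1.22-fold [1.02 to 1.47], at the edge of counting error. The level was 10.2-fold [8.84 to 11.7] lower in B9d1 KD than in WT, 8.30-fold [7.23 to 9.57] and 6.99-fold [6.20 to 7.90] lower under the Tektin-C KD and Klp59D KD labels, and 3.04-fold [2.77 to 3.35] lower in the sa mutant. The sa mutant's log2 fold was -1.60, and -0.83 with library size alone, under 2-fold. Most markers of the muscle sheath were lower than in WT as well. Of 16 such markers 15 were matched, and 13 of these were at least 2-fold lower in B9d1 KD, 12 and 13 under the Tektin-C KD and Klp59D KD labels and 13 in the sa mutant, with none 2-fold higher. The shares of all genes at least 2-fold lower were 25.7% in B9d1 KD, 17.1% and 23.2% under these labels and 27.7% in the sa mutant. Act87E and TpnC73F were slightly above WT under the Tektin-C KD label, at 939 against 935 and 17.3 against 15.4 scaled CPM, as was TpnC73F under the Klp59D KD label, at 16.3. The summed level of the 15 was 1070 scaled CPM in B9d1 KD, 2057 and 1503 under the Tektin-C KD and Klp59D KD labels, 1174 in the sa mutant and 4473 in WT, with none at 0. Without Act87E, the most abundant of them, which was left out after its values were seen, it was 854 in B9d1 KD, 1118 and 1154 under these labels, 1061 in the sa mutant and 3539 in WT. The part of these markers in the betaTub97EF values was not tested. Per kilobase of exon, the ratio of the betaTub85D level to that of betaTub97EF was 281 in B9d1 KD, 831 and 301 under the Tektin-C KD and Klp59D KD labels, 11.4 in the sa mutant and 89.7 in WT.

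Of the 4 alpha tubulin genes, alphaTub84B (FBgn0003884; 3R, 7086599 to 7088839, plus strand) gave most of the transcripts in every genotype. It is the alpha tubulin that most fly cells use. Its level was 1273 and 1259 scaled CPM in B9d1 KD, 1614 and 1610 in libraries labelled Tektin-C KD, 1651 and 1653 under the Klp59D KD label, 1383 and 1388 in the sa mutant, and 1821 and 1837 in WT. It spanned only 1.45-fold [1.43 to 1.46] from the highest genotype to the lowest, and 2.81% of all genes had a smaller range. Its log2 fold against WT was -0.53 in B9d1 KD, -0.18 and -0.15 under the Tektin-C KD and Klp59D KD labels and -0.40 in the sa mutant. With library size alone these were 0.05, -0.07, 0.40 and 0.37, so 3 of the 4 small differences changed direction. The genes nearest to it in profile were CG15211, Sox14 and U2af50, at distances of 0.13, 0.13 and 0.15.

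The gene alphaTub84D (FBgn0003885; 3R, 7530753 to 7532732, plus strand) encodes nearly the same protein as alphaTub84B, yet its transcript had another order of levels. It was at 117 and 113 scaled CPM in B9d1 KD, 288 and 289 in libraries labelled Tektin-C KD, 150 and 149 under the Klp59D KD label, 69 and 72.5 in the sa mutant, and 254 and 259 in WT. The order of the 5 genotypes was that of betaTub85D, and libraries of neighbouring genotypes did not overlap. The level was 3.62-fold [3.48 to 3.77] lower in the sa mutant than in WT, 2.24-fold [2.17 to 2.31] lower in B9d1 KD and 1.72-fold [1.67 to 1.78] lower in the library labelled Klp59D KD. It was 1.12-fold [1.09 to 1.16] higher in the library labelled Tektin-C KD. Library size alone gave a log2 fold of -0.58 in B9d1 KD in place of -1.16. Reads could be split or lost between these 2 similar genes, since no source used here says how reads with several places in the genome were treated, and the values of both are uncertain.

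The third alpha tubulin, alphaTub85E (FBgn0003886; 3R, 9731221 to 9733250, minus strand), is a divergent form known from muscle attachment sites and support cells. With TMM scaling it split the genotypes into a high and a low set. It was at 119 and 113 scaled CPM in B9d1 KD, 294 and 296 in libraries labelled Tektin-C KD, 114 and 116 under the Klp59D KD label, 139 and 140 in the sa mutant, and 312 and 320 in WT. B9d1 KD and the library labelled Klp59D KD overlapped, with a ratio of 1.01 [0.976 to 1.04]. Against WT the level was 2.73-fold [2.64 to 2.82] lower in B9d1 KD, 2.75-fold [2.67 to 2.84] lower in the library labelled Klp59D KD, 2.26-fold [2.19 to 2.34] lower in the sa mutant and 1.07-fold [1.05 to 1.10] lower in the library labelled Tektin-C KD. The first 3 log2 folds became -0.86, -0.91 and -0.40 with library size alone, all under 2-fold, and the last turned to 0.01. As a plain share of all counts, the sa mutant, at 0.0181%, lay between B9d1 KD (0.0132%) and WT (0.0239%). Of the 15 muscle sheath markers, 11 were lower and 4 higher under the Tektin-C KD label than under the Klp59D KD label, with a median log2 fold of -0.14. Act87E, the most abundant of them, was among the higher, at 939 against 349 scaled CPM. The summed level of the 15 was 2057 against 1503 scaled CPM, and without Act87E it turned to 1118 against 1154. The 13 hub and cyst cell markers had no common direction against WT: 1 was at least 2-fold higher and 3 lower in B9d1 KD, 3 and 3 under the Tektin-C KD label, 2 and 3 under the Klp59D KD label, and 1 and 5 in the sa mutant. Among all genes the shares higher and lower were 27.3% and 25.7% in B9d1 KD and 21.2% and 17.1% under the Tektin-C KD label. They were 23.6% and 23.2% under the Klp59D KD label and 26.4% and 27.7% in the sa mutant. The summed level of the 13 markers was 789 scaled CPM in B9d1 KD, 554 and 622 under the Tektin-C KD and Klp59D KD labels, 469 in the sa mutant and 485 in WT, with none at 0. Without chinmo, the most abundant of them, also left out after its values were seen, it was 334 in B9d1 KD, 339 and 346 under these labels, 329 in the sa mutant and 395 in WT. The part of muscle sheath, hub or cyst cells in the alphaTub85E values was not tested.

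The fourth, alphaTub67C (FBgn0087040; 3L, 9681268 to 9683370, plus strand), is the maternal alpha tubulin of eggs and early embryos and was barely detected. Its counts were 7 and 4 in B9d1 KD, 7 and 7 in libraries labelled Tektin-C KD, 12 and 10 under the Klp59D KD label, 11 and 9 in the sa mutant, and 0 and 1 in WT. No library exceeded 0.483 scaled CPM. The ratio to WT was 5.52 [0.802 to 237] in B9d1 KD, where the interval holds 1, and 12.0 [1.92 to 497] in the sa mutant. This gene passed the filter only through the altered genotypes, so a high ratio to WT was built into its selection.

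Ratios between members do not depend on how libraries are scaled. Per kilobase of exon, the level of betaTub85D was 0.107 [0.104 to 0.109] times that of alphaTub84B in the sa mutant, 0.865 [0.856 to 0.874] times in B9d1 KD, 1.03 [1.02 to 1.04] times in the library labelled Klp59D KD, 2.45 [2.43 to 2.47] times in that labelled Tektin-C KD, and 1.94 [1.92 to 1.96] times in WT. The per-length level of alphaTub84B was 22.1 [21.4 to 22.9] times that of alphaTub84D in the sa mutant, 12.5 [12.2 to 12.8] times in B9d1 KD and in the library labelled Klp59D KD (12.5 [12.2 to 12.8]), 6.32 [6.20 to 6.43] times in that labelled Tektin-C KD, and 8.06 [7.86 to 8.26] times in WT. The ratio of betaTub85D to alphaTub84D was 10.8 in B9d1 KD, 15.5 and 12.9 under the Tektin-C KD and Klp59D KD labels, 2.36 in the sa mutant and 15.6 in WT, so betaTub85D was lower relative to alphaTub84D in the sa mutant than in the other genotypes.

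Within the alpha class, the near-identical genes alphaTub84B and alphaTub84D together gave 91.3% of the per-length level in B9d1 KD, 84.9% in the library labelled Tektin-C KD, 93.2% in that labelled Klp59D KD, 90.2% in the sa mutant and 85.3% in WT. The libraries of B9d1 KD lay farthest apart, at 91.2% and 91.4%. The share of alphaTub84D alone was 6.77% in B9d1 KD, 11.6% and 6.89% under the Tektin-C KD and Klp59D KD labels, 3.90% in the sa mutant and 9.41% in WT. The share of alphaTub85E was 8.70%, 15.1%, 6.74%, 9.78% and 14.7% in the same order of genotypes. WT and the library labelled Tektin-C KD were alike in having the smallest alphaTub84B share and the largest shares of the other two.

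**Figure D2:**
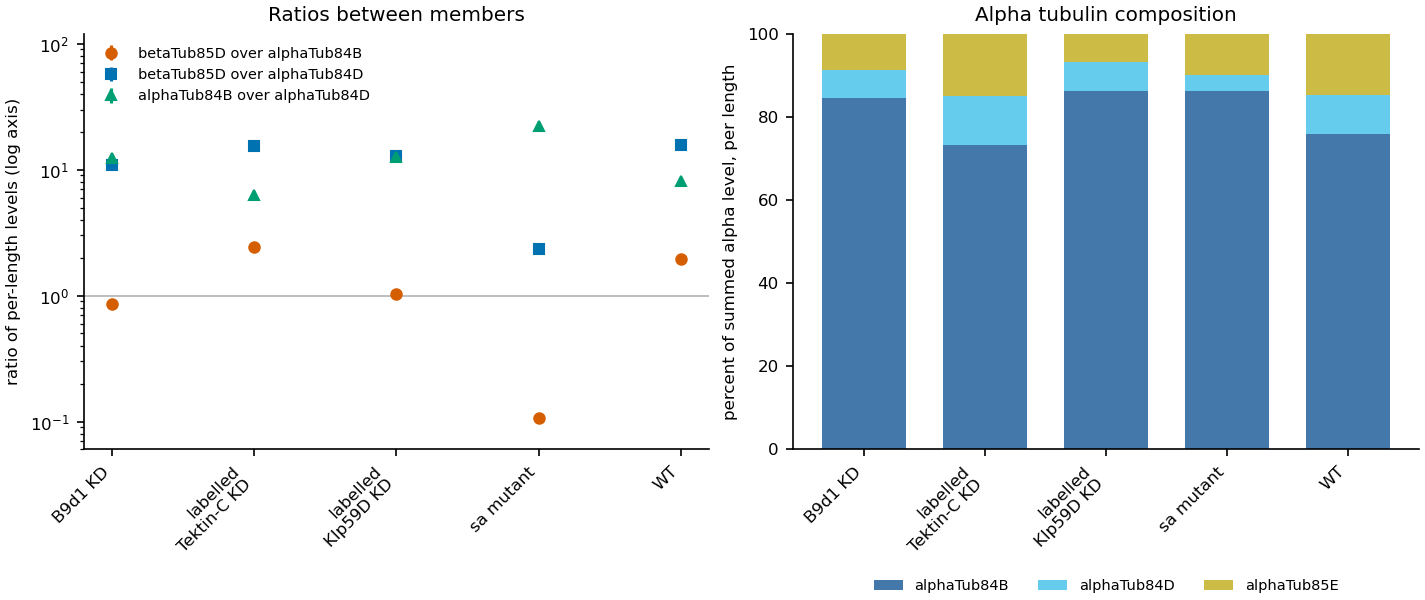
Left, ratios between per-length levels of 3 pairs of genes in each summed sample on a log axis, with 95% counting intervals that are mostly smaller than the symbols; right, the makeup of the alpha tubulin level, where alphaTub67C is too small to see. The betaTub85D to alphaTub84B ratio is 0.107 in the sa mutant and 1.94 in WT.

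Both gamma tubulins were lowest in WT. The general gamma tubulin gammaTub23C (FBgn0260639; 2L, 2972891 to 2974858, plus strand), a core part of the ring complex at centrosomes, was at 39.8 and 39.9 scaled CPM in B9d1 KD, 27.6 and 27.1 in libraries labelled Tektin-C KD, 31.7 and 31.9 under the Klp59D KD label, 27.9 and 29.3 in the sa mutant, and 18.3 and 18.8 in WT. All altered genotypes lay above WT and B9d1 KD was the highest. The sa mutant and the library labelled Tektin-C KD did not differ beyond counting error, with a ratio of 1.05 [0.970 to 1.13]. The level was 2.15-fold [1.96 to 2.37] higher in B9d1 KD than in WT, 1.72-fold [1.56 to 1.89] and 1.47-fold [1.33 to 1.63] higher under the Klp59D KD and Tektin-C KD labels, and 1.54-fold [1.40 to 1.71] higher in the sa mutant. The log2 folds of 0.78 in the library labelled Klp59D KD and 0.63 in the sa mutant became 1.32 and 1.40 with library size alone, past 2-fold.

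The maternal gamma tubulin gammaTub37C (FBgn0010097; 2L, 19183863 to 19185726, minus strand), which serves the egg and early embryo, had few counts. They were 31 and 43 in B9d1 KD, 16 and 26 in libraries labelled Tektin-C KD, 48 and 51 under the Klp59D KD label, 13 and 32 in the sa mutant, and 0 and 3 in WT. The 3 WT counts are 0.103 scaled CPM, against 0.881 to 1.72 in the altered genotypes. The ratio to WT was 16.6 [5.51 to 81.8] in the library labelled Klp59D KD, 12.4 [4.07 to 61.3] in B9d1 KD, 8.99 [2.89 to 45.2] in the sa mutant and 8.52 [2.72 to 43.0] under the Tektin-C KD label. Among the 4 altered genotypes, neighbours in the order did not differ beyond counting error. The ends did, at 1.72 [1.39 to 2.09] scaled CPM (Klp59D KD label) and 0.881 [0.635 to 1.19] (Tektin-C KD label). The sa mutant libraries lay apart, at 0.570 and 1.25 scaled CPM. Like alphaTub67C, this gene passed the filter only through the altered genotypes. Of 6 spermatogonial markers named, bam, bgcn, aub and zpg were matched, and 3 of the 4 were at least 2-fold higher than in WT in B9d1 KD, 1 and 4 under the Tektin-C KD and Klp59D KD labels, and 3 in the sa mutant. Among all genes 27.3% were higher in B9d1 KD, 21.2% and 23.6% under these labels and 26.4% in the sa mutant. The summed level of the 4 markers was 142 scaled CPM in B9d1 KD, 114 and 167 under the Tektin-C KD and Klp59D KD labels, 155 in the sa mutant and 60.5 in WT, with none at 0. Without bgcn, the most abundant of them, also left out after its values were seen, the order of the genotypes changed. The sum was then 55.7 in B9d1 KD, 26.2 and 57.9 under these labels, 87.8 in the sa mutant and 20.8 in WT. The part of spermatogonia in the gamma tubulin values was not tested.

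Counted as a family, all 8 matched genes passed the filter on low counts, including the 2 that passed only through the altered genotypes. In B9d1 KD against WT, 3 members were at least 2-fold higher (gammaTub23C, gammaTub37C and alphaTub67C) and 4 lower, against a background of 53.0% of 13831 genes at least 2-fold apart. In the library labelled Tektin-C KD against WT, 2 were higher (alphaTub67C and gammaTub37C) and 1 lower (betaTub97EF), with 38.3% of all genes apart. In that labelled Klp59D KD, the same 2 were higher and 3 lower, with 46.8% apart. In the sa mutant the same 2 were higher and 4 lower, with 54.2% apart. The shares of all genes higher and lower were 27.3% and 25.7%, 21.2% and 17.1%, 23.6% and 23.2%, and 26.4% and 27.7% in turn. A high ratio to WT was built into the selection of alphaTub67C and gammaTub37C, so their higher calls are no result about the family. The medians and counts that follow include both genes, whose high ratios raise the medians, so those medians and counts are no result about the family either. The median log2 fold of the members was -0.85, 0.16, -0.47 and -0.79 in these 4 comparisons, against 0.08, 0.13, 0.05 and 0.02 over all genes. Library size alone moved the median over all genes to 0.65, 0.23, 0.59 and 0.78 and that over members to -0.26, 0.27, 0.08 and -0.01. It gave 3 higher and 2 lower both in B9d1 KD and in the sa mutant. Under the Klp59D KD label it gave 3 higher and 1 lower. Of all genes 57.4%, 62.5% and 52.2% were apart in the same order under that scaling. The shares higher were 41.0%, 44.5% and 37.5%, and the shares lower 16.4%, 18.04% and 14.7%. All 4 comparisons share the WT sample.

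**Figure D3:**
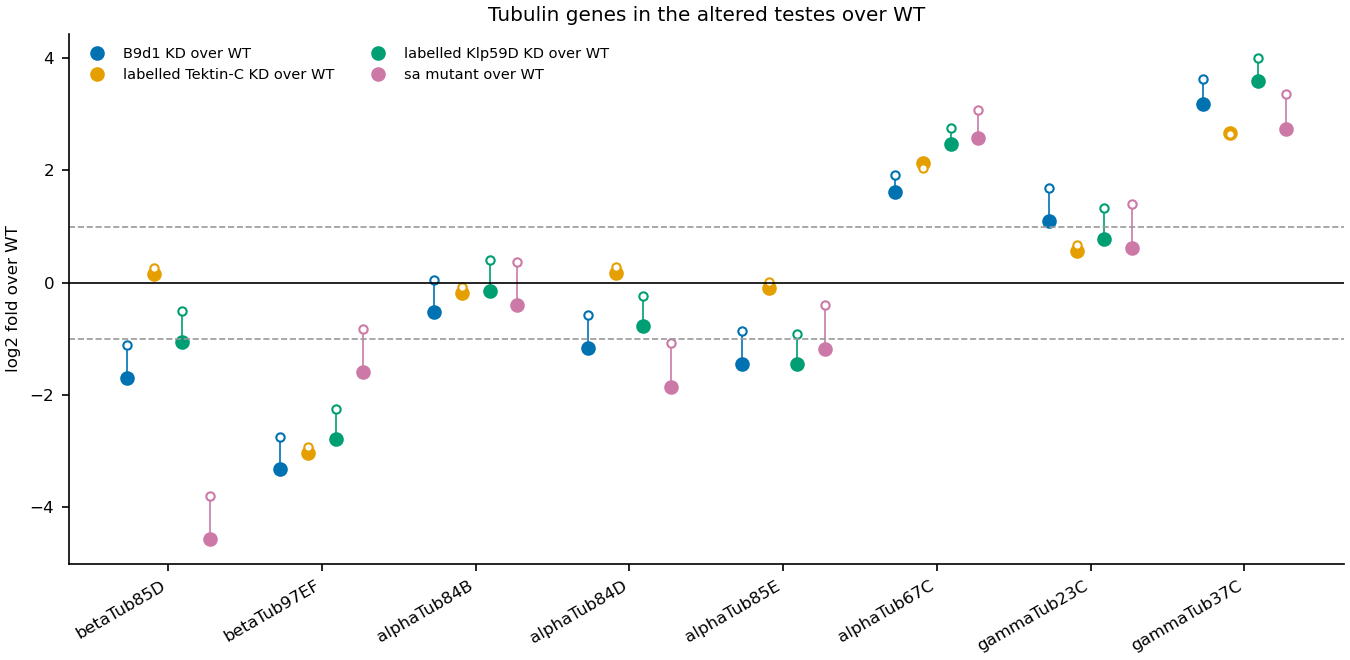
Log2 fold of the 8 tubulin genes over WT, with filled circles for TMM scaling and small open circles for library size alone; dashed lines mark 2-fold. betaTub85D reaches -4.59 in the sa mutant, and the alphaTub84B values lie on either side of 0 depending on the scaling.

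The 3 knockdowns share driver, temperature and days of growth, so they were also set against each other. B9d1 KD had 3 members at least 2-fold lower than the library labelled Tektin-C KD and none higher, with 34.4% of all genes apart and 19.7% lower. These were betaTub85D (3.61-fold [3.58 to 3.64] lower), alphaTub84D (2.52-fold [2.44 to 2.59] lower) and alphaTub85E (2.54-fold [2.47 to 2.62] lower). Under library size alone only betaTub85D of these 3 stayed past 2-fold, and gammaTub23C passed it, at a log2 fold of 1.02, with 40.1% of all genes apart under that scaling. Between B9d1 KD and the library labelled Klp59D KD no member of 8 was called apart, with 13.4% of all genes apart (6.28% higher and 7.13% lower). The largest difference among the well-counted members was in betaTub85D, at 1.55-fold [1.54 to 1.57] lower in B9d1 KD. The few counts of alphaTub67C gave a ratio of B9d1 KD to that library of 0.499 [0.218 to 1.07], and the call, which adds a prior count, left it under 2-fold. The library labelled Tektin-C KD had 2 members at least 2-fold higher than that labelled Klp59D KD, with 21.2% of all genes apart, 14.5% higher and 6.75% lower. They were betaTub85D (2.32-fold [2.31 to 2.34]) and alphaTub85E (2.57-fold [2.49 to 2.64]). Their log2 folds were 0.78 and 0.92 with library size alone, under 2-fold, and gammaTub37C then passed it in the other direction, at -1.35, with 26.0% of all genes apart. The alphaTub84D transcript was 1.93-fold [1.88 to 1.99] higher there, and RLE factors put its log2 fold at 1.00, just past 2-fold, in place of 0.95. In all 3 knockdown comparisons alphaTub84B differed by at most 1.31-fold.

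Outside the 8 members, 2 further genes of the family were found. The beta tubulin gene betaTub65B (FBgn0052396; 3L, 6530729 to 6532429, plus strand, inside the sfl gene on the same strand) and CG7794 (FBgn0038565; 3R, 18023707 to 18025378, plus strand), which carries the synonym Tub1B in RefSeq, were both lowest in the sa mutant. The betaTub65B level was 109 and 104 scaled CPM in B9d1 KD, 203 and 201 in libraries labelled Tektin-C KD, 81.5 and 82.1 under the Klp59D KD label, 17.7 and 18.1 in the sa mutant, and 375 and 368 in WT. It was 20.7-fold [19.4 to 22.3] lower in the sa mutant than in WT. The CG7794 level was 153 and 158 scaled CPM in B9d1 KD, 341 and 329 in libraries labelled Tektin-C KD, 195 and 203 under the Klp59D KD label, 23.2 and 23.1 in the sa mutant, and 201 and 202 in WT. It was 8.70-fold [8.16 to 9.28] lower in the sa mutant than in WT, while B9d1 KD was 1.30-fold [1.25 to 1.34] lower.

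New tubulin must be folded before it can form dimers. The ring-shaped CCT chaperonin folds tubulin and actin, and 7 of its 8 subunit genes were matched. All 7 were at least 2-fold higher in the sa mutant than in WT (median log2 fold 1.58), from CCT2 at 298 against 122 scaled CPM to CCT3 at 380 against 112. In B9d1 KD 4 of the 7 were higher than in WT (median 1.16), and the extremes were CCT6, at 141 against 53.5 scaled CPM, and CCT4, at 102 against 73.6. None was 2-fold apart in libraries labelled Tektin-C KD (median -0.01) and Klp59D KD (median 0.52), although with library size alone 5 of 7 were higher under the Klp59D KD label, as were all 7 in B9d1 KD, against 37.5% and 41.0% of all genes higher under that scaling. With TMM scaling the shares of all genes at least 2-fold higher were 26.4% in the sa mutant, 27.3% in B9d1 KD, 21.2% in the library labelled Tektin-C KD and 23.6% in that labelled Klp59D KD. In the same sa mutant libraries betaTub85D was 24.0-fold lower.

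Prefoldin hands unfolded chains to CCT, and its 6 genes were mostly within 2-fold of WT (median log2 fold 0.10 in B9d1 KD, -0.19 and 0.04 under the Tektin-C KD and Klp59D KD labels, and 0.52 in the sa mutant). Pfdn1 was at 150 scaled CPM in the sa mutant, against 63.6 in WT, and was the only one at least 2-fold higher there, although library size alone gave 4 of 6 higher in the sa mutant and 3 in B9d1 KD, against 44.5% and 41.0% of all genes higher under that scaling. Pfdn6 was at 43.3 scaled CPM in the library labelled Klp59D KD, against 256 in WT. The tubulin folding cofactors, which join the folded subunits into a dimer, had 3 of 6 genes at least 2-fold higher, and none lower, in each of the 4 comparisons with WT (median log2 fold 0.86 in B9d1 KD, 1.01 and 1.05 under the Tektin-C KD and Klp59D KD labels, and 1.03 in the sa mutant). Of all genes, 27.3% were at least 2-fold higher in B9d1 KD, 21.2% and 23.6% under these labels and 26.4% in the sa mutant. Tbcc had the largest log2 fold in B9d1 KD, at 64.7 against 12.1 scaled CPM in WT, and Tbcd that in the sa mutant, at 245 against 54.4.

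Enzymes that modify tubulin were mostly low in the sa mutant. Of 17 such genes named, 15 were matched, among them the TTLL ligases that add glutamate or glycine chains, the acetyltransferase Atat and the deglutamylase Nna1. In the sa mutant 8 of 15 were at least 2-fold lower than in WT and 1 higher (median log2 fold -1.66), with 27.7% of all genes lower. TTLL6A was the lowest, at 18.8 against 527 scaled CPM, and TTLL15 the highest, at 18.7 against 8.96. In B9d1 KD 4 were lower and 1 higher (median 0.14), and in the library labelled Klp59D KD 3 were lower and 2 higher (median 0.15), against 25.7% and 23.2% of all genes lower. Library size alone gave none lower in either, with 4 and 3 higher, and in the sa mutant 6 lower and 2 higher. Under that scaling 16.4%, 14.7% and 18.04% of all genes were lower in B9d1 KD, under the Klp59D KD label and in the sa mutant. In the same order, 41.0%, 37.5% and 44.5% of all genes were higher. With TMM factors, none was lower and 1 higher in the library labelled Tektin-C KD (median 0.48), with 17.1% of all genes lower. With these factors, 26.4% of all genes were higher in the sa mutant and 27.3% in B9d1 KD. The shares higher were 23.6% under the Klp59D KD label and 21.2% under the Tektin-C KD label. TTLL6A was at 181 scaled CPM in B9d1 KD, 888 in the library labelled Tektin-C KD, 227 in that labelled Klp59D KD and 527 in WT, in the order of the betaTub85D levels.

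Of 17 genes for proteins that bind or sever microtubules, 9 were at least 2-fold higher in B9d1 KD than in WT (median log2 fold 1.02), 7 and 8 under the Tektin-C KD and Klp59D KD labels (medians 0.86 and 0.85), with none lower in these 3. Of all genes, 27.3% were higher in B9d1 KD and 21.2% and 23.6% under these labels. In the sa mutant 8 were higher and 5 lower (median 0.66), against 26.4% and 27.7% of all genes. Library size alone gave 9 higher and 2 lower there, against 44.5% and 18.04% of all genes, and 13 higher in B9d1 KD, against 41.0%. The severing gene Fign was the highest in the sa mutant, at 42.5 against 5.27 scaled CPM in WT, and the katanin-like gene kat-60L1 the lowest, at 17.1 against 170. The spindle gene mars was the highest in the library labelled Tektin-C KD, at 217 against 48.8 scaled CPM in WT. Markers of the accessory gland, a separate organ, differed beside all of these. Of 18 that passed the filter, 16 were at least 2-fold higher than in WT in B9d1 KD and 1 lower, and 17 were higher and none lower in each of the other 3. All 19 had a summed level of 552 scaled CPM in B9d1 KD, 576 and 3227 under the Tektin-C KD and Klp59D KD labels, 1592 in the sa mutant and 53.8 in WT. Acp24A4 was at 0 in the sa mutant, and Acp63F and Mst57Dc were at 0 in WT. Markers at or near 0 in WT could pass the filter only through the altered genotypes. For such markers a high ratio to WT was built into the selection. Their part in the list values was not tested.

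**Figure D4:**
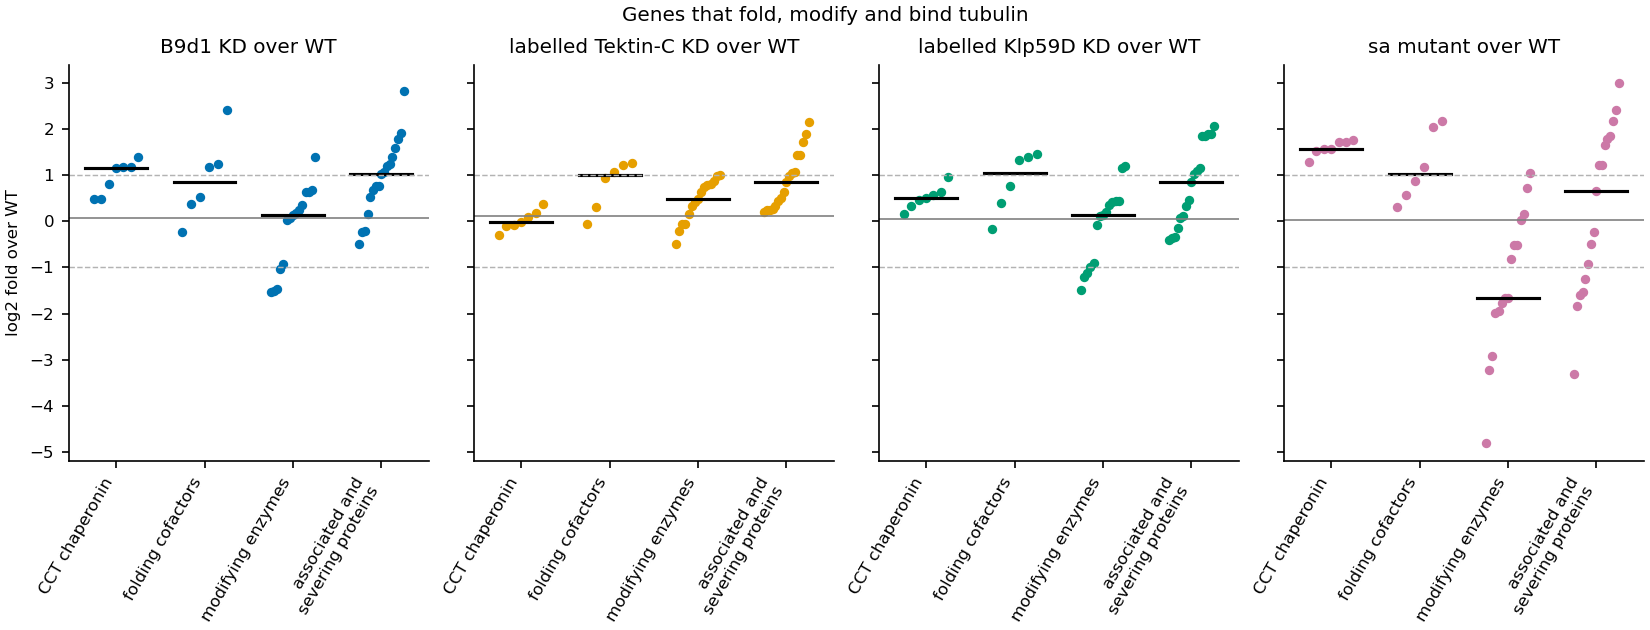
Log2 fold over WT of genes that fold, modify and bind tubulin, 1 point a gene and a black bar for the median, in each altered genotype; the grey line is the median of all genes and dashed lines mark 2-fold. In the sa mutant all 7 CCT genes lie above the upper dashed line and 8 of 15 modifying enzymes below the lower one.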

How the data were processed

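Whole-testis RNA was depleted of ribosomal RNA and made into stranded libraries, per the labels' protocols. The authors deposited raw read counts per FlyBase gene, as whole numbers, for each library. The submitters' processing notes name the dm6 build, the aligner STAR 2.5.1b and the trimmer Trim Galore 0.4.1. No source used here gives the read counter, its strand setting or its handling of multi-mapping reads. Symbols, coordinates and exon lengths came from Ensembl release 115, whose coordinates are those of dm6; 17138 identifiers had a symbol and 274 had none.

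The members and gene lists were chosen with earlier results of these data known. Genes passing filterByExpr of edgeR 4.0.16 (R 4.3.3) were kept (13831), libraries of a genotype were summed, TMM factors were computed, and log2 CPM used a prior count of 2. Because the summed libraries leave 1 sample a genotype, edgeR's quasi-likelihood test was not the main result. Intervals of folds and ratios are Clopper-Pearson. Gene list members were named where they had the largest or smallest log2 fold of a comparison, or were tubulin genes or targeted genes, and the 3 nearest profiles were named for betaTub85D and alphaTub84B. The planned share of betaTub85D among beta tubulins and the profile neighbours of betaTub60D were not computed, since betaTub56D and betaTub60D had no match. The steps were tested on simulated data with 12599 genes, drawn from WT levels at the real library sizes. Known folds were given to 200 genes in the libraries standing for B9d1 KD. Of the 200 changed genes 100% were recovered, and 0% of the unchanged genes with at least 200 WT counts were called. The changed genes also had at least 200 WT counts, so members with few counts were not covered. Far fewer genes were changed than differ in the data, so the choice of scaling was not tested either. Alternatives were RLE factors, library size alone, other low-count filters, each library left out in turn, totals without structural RNA and mitochondrial genes, summing alphaTub84B and alphaTub84D, edgeR fits on separate libraries with and without a replicate block, and DESeq2 1.42.0.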

Additional observations from a re-analysis of the deposited data

How the results depend on the processing

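Over 707 recomputed log2 folds of members, 20 crossed 2-fold, 14 of them with library size alone, and 10 changed sign. None of those that changed sign was past 2-fold. With only genes over 5 CPM in at least 2 libraries, the number of members at least 2-fold apart was 1 in the library labelled Tektin-C KD and 3 in that labelled Klp59D KD against WT, because alphaTub67C and gammaTub37C left. With library size alone it was 1 in the library labelled Tektin-C KD against that labelled Klp59D KD. For B9d1 KD against the library labelled Klp59D KD it was 1 with the DESeq2 fold, and 0 to 1 when a library was left out. The gene was alphaTub67C, at a log2 fold of -1.01 under DESeq2, -1.27 without B9d1 KD library 1 and -1.03 without library 2 of the Klp59D KD label. The share of alphaTub84B and alphaTub84D, taken on read counts without length, was 92.2% in B9d1 KD, 86.6% under the Tektin-C KD label, 94.0% under the Klp59D KD label, 91.2% in the sa mutant and 86.8% in WT. All other numbers of members apart stayed within 1.5 times.

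An edgeR quasi-likelihood fit on the separate libraries gave the same numbers of members with a replicate block as without it in all 7 comparisons. In B9d1 KD against WT both gave 6, against 7 by fold alone, since an adjusted p was also required. Log2 ratios of library 2 to library 1 correlated between genotypes at 0.0670 to 0.168 over 6969 genes, so each library deviated most like those of its own number, as a hint from the data; the numbers are not taken to pair the libraries. The low counts of alphaTub67C and gammaTub37C limit what can be said of both. The planned share of betaTub85D among beta tubulins was not run.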
